A study of Mus musculus with 8 samples.

Results

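Integrins are paired alpha and beta chains that hold leukocytes to other cells and to the extracellular matrix, and ICAM-1 and VCAM-1 are 2 of their ligands on other cells. Expression of 10 such genes (*Itga1*, *Itga4*, *Itga5*, *Itgal*, *Itgam*, *Itgax*, *Itgb2*, *Itgb8*, *Vcam1* and *Icam1*) was examined in murine bone marrow-derived macrophages (BMDM). The genes were chosen by name, with earlier results of these data known. The shares of them that passed therefore describe this list and do not test it. Every probe set (a group of short array probes read as 1 value) that the array annotation pairs with 1 of them alone was taken, which gave 21 of the 45008 probe sets tested and 10 of 18183 genes. *Itga4* had 5 probe sets, *Itga5* 4, *Vcam1* 3, *Itga1* and *Itgal* 2 each, and the other 5 genes 1 each.

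RNA of 4 groups was measured on 8 arrays, 2 per group. These were KO(LPS + IL-10), KO(LPS), WT(LPS + IL-10) and WT(LPS), where KO stands for *miR-155*-/- and WT for wild type. The bone marrow came from 2 KO and 2 C57Bl/6 WT animals, was kept frozen, and was grown after thawing for 7 days in medium with 15% L929-conditioned medium, a source of the macrophage growth factor M-CSF. All cells received LPS, the bacterial TLR4 ligand, at 100 ng/ml for 24 h, and IL-10, an anti-inflammatory cytokine, was given at 20 ng/ml 5 min before LPS. Each animal gave 1 array with and 1 without IL-10. No unstimulated cells were among the groups, so every value is a level under LPS. By their labels the WT animals were female and the KO animals male, so that genotype and sex cannot be told apart in any comparison between genotypes. The mice were on a C57BL/6J background. The general account of BMDM culture names females aged 6 to 12 weeks, which differs from the label of the KO animals. Y-linked probe sets followed the labels, with a highest value of 10.07 to 10.73 on the KO arrays, against 5.14 to 5.28 on the WT arrays. How the knockout allele was made was not stated.

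The integrins fall into families by their beta chain. *Itgal* (CD11a), *Itgam* (CD11b) and *Itgax* (CD11c) encode alpha chains that pair with the beta2 chain of *Itgb2* (CD18) to give LFA-1, Mac-1 and p150,95, and ICAM-1 is a ligand of LFA-1 and Mac-1. *Itga4* pairs with beta1 to bind VCAM-1 and fibronectin, *Itga5* with beta1 to bind fibronectin, and *Itga1* with beta1 to bind collagens. *Itgb8* pairs with alpha v to bind and activate latent TGF-beta. In macrophages LPS is known to raise *Icam1*, and IL-10 is known to lower many LPS-induced genes.

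The RNA that the knockout animals lack is miR-155-5p and its passenger strand, cut from 1 hairpin. The mature miR-155-5p is shown because its loss defines the genotype. Its sequence is from RefSeq (GRCm38.p6, chr16:84714143-84714165, plus strand), with the seed (bases 2 to 8), through which a miRNA pairs with its targets, in capitals.
miR-155-5p: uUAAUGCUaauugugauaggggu

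RefSeq promoters (250 bases before to 50 after the transcription start, GRCm38.p6) were matched by symbol for 7 of the 10 genes, *Itga1*, *Itga4*, *Itga5*, *Itgam*, *Itgax*, *Itgb8* and *Icam1*. Both strands were searched for 5 motifs of factors that act in LPS-stimulated or differentiating macrophages. The NF-kappaB motif GGANNTTCC was in 1 of the 7 (*Icam1*) and in 4.27% of 32544 distinct promoters of the same length. The STAT motif TTCNNNGAA was also in *Icam1* alone of the 7, and in 8.33% of all. The AP-1 motif TGANTCA was in *Itgax* (7.79% of all), the PU.1 core GAGGAA in *Itga5* and *Itgam* (28.1% of all), and the interferon response core AAANNGAAA in 0 of the 7 (10.5% of all). The *Icam1* promoter (chr9:21015690-21015989, plus strand) is shown because it holds both of the first motifs. The NF-kappaB match starts 153 bases before the transcription start and the STAT match 42 bases before it. Both are in capitals and do not overlap.
Icam1: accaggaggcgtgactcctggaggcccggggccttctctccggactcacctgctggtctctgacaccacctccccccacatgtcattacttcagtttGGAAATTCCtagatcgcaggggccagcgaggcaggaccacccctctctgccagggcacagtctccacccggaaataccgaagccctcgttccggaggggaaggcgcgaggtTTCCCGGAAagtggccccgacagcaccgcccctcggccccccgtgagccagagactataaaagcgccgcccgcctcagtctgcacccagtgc
A match is a string of letters and does not show that a factor binds there.

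All values are log2 intensities after RMA, the authors' background correction and quantile normalisation, so a difference of 1 is a 2-fold change. The arrays had medians of 3.88 to 3.97. The number of arrays limits the precision. No calls of presence were used, and the level of unexpressed probe sets was taken as 3.26, the 90th percentile of 20 probe sets of Y-linked genes on the arrays labelled female. Of all values, 42.7% lay under it. The primary transcript of the deleted miRNA, *Mir155hg*, had values of 1.70 and 2.00 in KO(LPS + IL-10), 2.14 and 2.19 in KO(LPS), against 2.31 and 2.01 in WT(LPS + IL-10) and 2.73 and 4.02 in WT(LPS). Only 1 WT(LPS) array was above 3.26. No source used here says if the deletion covers these probes, so the values do not check the genotype. All 7 of the measured macrophage markers were above 3.26 on every array, and *Adgre1* (F4/80) lay between 12.72 and 12.90. *Mertk* was at 8.03 to 8.53 on the KO arrays and at 9.06 to 9.52 on the WT arrays. At an adjusted p under 0.05 by limma, 0 of the 7 differed in any comparison. Markers of endothelium, T and NK cells, B cells, granulocytes and dendritic cells had mean values of 2.21 to 3.39 on every array.

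The 2 arrays of WT donor 1 stood apart in markers of fibroblasts and stroma. Of 12 such markers, 11 were highest in that donor, and their mean was 8.34 with IL-10 and 8.32 without, against 3.38 to 4.93 on the other 6 arrays. The part of stromal cells in the differences between genotypes was not tested. Differences of the 10 genes between genotypes under LPS that passed with all arrays are also given without this donor. Those of the partner genes named further below are not. For *Itga1* (1439713_at) donor 1 was at 9.71 and donor 2 at 10.25 in WT(LPS + IL-10), and donor 1 at 8.01 and donor 2 at 7.34 in WT(LPS), so that the donor with more stromal transcripts was the lower with IL-10 and the higher without. In the KO animals donor 2 had both the higher *Itga1* value and the higher stromal mean, with and without IL-10. RNA of a whole culture does not tell fewer cells of a type from less RNA per cell.

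In KO(LPS) BMDM, 5 of the 10 genes were higher than in WT(LPS), 2 were lower and 3 did not pass the test. *Icam1*, *Itgal*, *Itga4*, *Itga5* and *Itgb8* were higher, and *Vcam1* and *Itga1* lower. With IL-10 added to KO cells the same 5 higher genes were lower and *Itga1* higher, while *Vcam1* did not pass. These 2 comparisons share the KO(LPS) arrays, as other comparisons with a group in common share that group's arrays. By probe set, 8 were higher and 2 lower of 21 in KO(LPS) against WT(LPS) at an adjusted p under 0.05 by limma, where 0.951% of all probe sets tested were higher and 0.513% lower (1.46% in either direction). The median log2 difference of the 21 was 0.66, against 0.02 over all probe sets. In KO(LPS + IL-10) against KO(LPS), 1 was higher and 9 lower, where 1.26% of all were higher and 1.42% lower (2.68% in either direction), with a median of −0.98 against 0.01 over all.

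In the other comparisons no probe set of these genes passed. In WT(LPS + IL-10) against WT(LPS), 0 of 21 were called by limma (0.0311% of all). In KO(LPS + IL-10) against WT(LPS + IL-10) the count was 0 (0.0711% of all). For the difference between genotypes in the IL-10 effect it was also 0 (0.0333% of all). By the rule of the study's methods (unadjusted p under 0.05 and a log2 difference over 1), 13 of 21 were selected in KO(LPS) against WT(LPS) (2.52% of all) and 12 in KO(LPS + IL-10) against KO(LPS) (2.51%). That rule selected 7 in WT(LPS + IL-10) against WT(LPS) (0.689%), 4 in KO(LPS + IL-10) against WT(LPS + IL-10) (1.22%), and 2 for the difference of the IL-10 effect (1.76%).

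**Figure D1:**
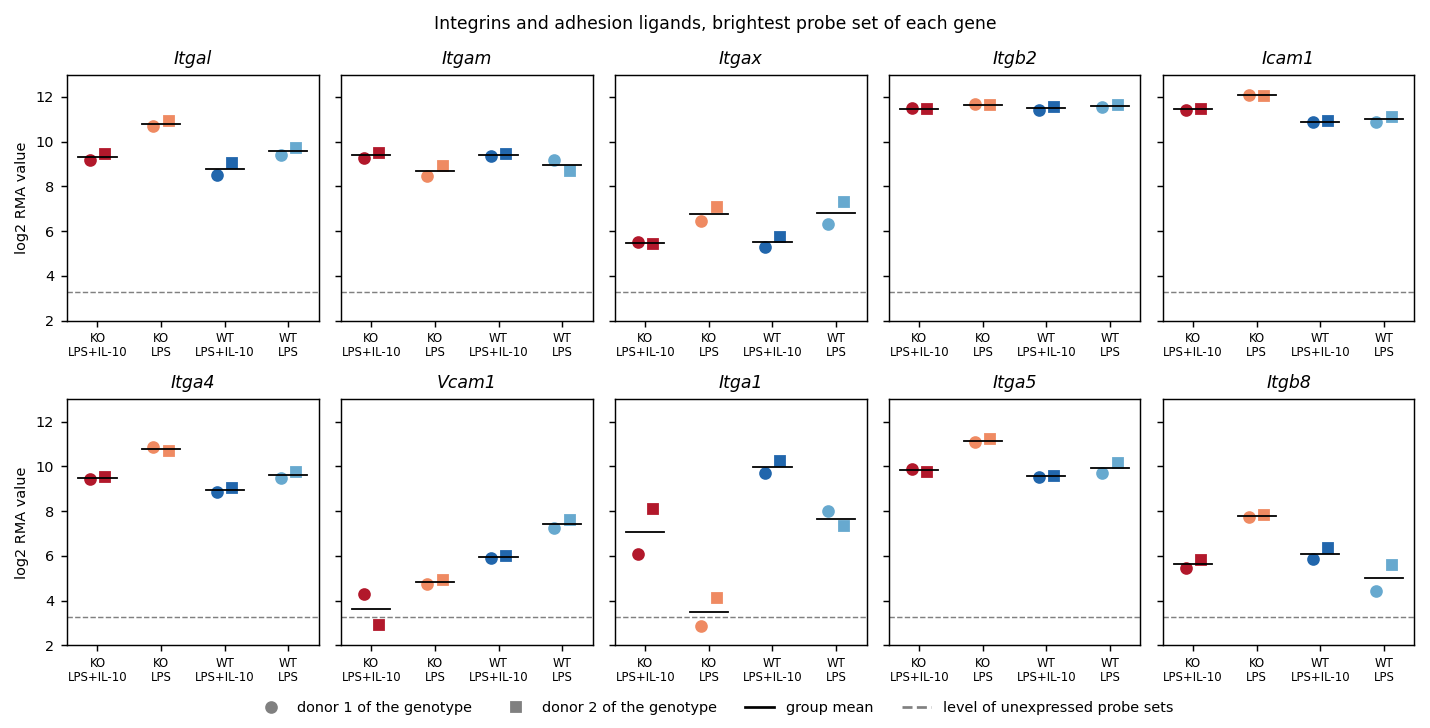
Log2 RMA values of the brightest probe set of each gene (y axis) in the 4 groups (x axis). Circles and squares are donors 1 and 2 of a genotype, bars are group means and the dashed line is the level of unexpressed probe sets (3.26). *Icam1*, *Itgal*, *Itga4*, *Itga5* and *Itgb8* are highest in KO(LPS), while *Itga1* is lowest there and *Itgb2* is nearly level.

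*Icam1*, the ligand of LFA-1 and Mac-1, was higher in the knockout. Its probe set (1424067_at) was at 11.43 and 11.47 in KO(LPS + IL-10), 12.10 and 12.03 in KO(LPS), against 10.87 and 10.92 in WT(LPS + IL-10) and 10.90 and 11.12 in WT(LPS). All 4 KO arrays were above all 4 WT arrays, and the KO arrays with and without IL-10 did not overlap, while the WT arrays did. *Icam1* was 2.08-fold higher in KO(LPS) than in WT(LPS) (log2 difference 1.06, 95% confidence interval 0.74 to 1.37, adjusted p = 0.0188). Without WT donor 1 the difference was 0.94 (adjusted p = 0.0984). IL-10 lowered it in KO cells by a log2 difference of −0.62 (adjusted p = 0.0434), and the difference in WT cells was −0.12 (adjusted p = 0.781). Under IL-10 the genotypes differed by 0.55, which did not pass (adjusted p = 0.278).

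*Vcam1* differed between genotypes in the other direction. Its brightest probe set (1451314_a_at) was at 4.31 and 2.93 in KO(LPS + IL-10), 4.76 and 4.94 in KO(LPS), against 5.90 and 6.00 in WT(LPS + IL-10) and 7.23 and 7.63 in WT(LPS). Every WT array was above every KO array, and both WT(LPS) arrays were above both WT(LPS + IL-10) arrays. It was 5.95-fold lower in KO(LPS) than in WT(LPS) (log2 difference −2.57, 95% confidence interval −3.57 to −1.57, adjusted p = 0.0417). Without WT donor 1, whose stromal markers were high, the difference was −2.77 (adjusted p = 0.144). Of the WT(LPS) pair donor 1 had the lower value by this probe set and the higher value by the other 2 *Vcam1* probe sets.

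With IL-10 the same *Vcam1* probe set had log2 differences of −1.23 in KO cells (adjusted p = 0.149) and −1.47 in WT cells (adjusted p = 0.309). Neither passed the test. All 4 donors had less *Vcam1* with IL-10. Between KO(LPS + IL-10) and WT(LPS + IL-10) the difference was −2.33 (adjusted p = 0.168), with 1 of the KO arrays under 3.26.

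The other *Vcam1* probe sets did not pass either. Probe set 1448162_at was at 1.23 and 2.28 in KO(LPS + IL-10), 4.48 and 4.89 in KO(LPS), against 6.85 and 4.10 in WT(LPS + IL-10) and 7.63 and 7.44 in WT(LPS). Both KO(LPS + IL-10) values were at the level of unexpressed probe sets, so that *Vcam1* was at least 2.68-fold lower there than in KO(LPS) (adjusted p = 0.0868) and at least 4.64-fold lower than in WT(LPS + IL-10) (adjusted p = 0.228). Such bounds set each dim array at 3.26 or its own value, whichever was higher. Here and below, the adjusted p beside a bound is from the limma test of the values as measured, not of the bound. The first of these passed without WT donor 1 (adjusted p = 0.0118). The second bound takes the mean of the 2 WT(LPS + IL-10) arrays, which lay far apart (6.85 in donor 1 and 4.10 in donor 2). Its log2 difference as measured was −3.72, and −2.35 without WT donor 1. Such bounds allow for values under 3.26 and not for the spread between arrays. The other log2 differences of this probe set were −2.85 for KO(LPS) against WT(LPS) (adjusted p = 0.172) and −2.06 for IL-10 in WT cells (adjusted p = 0.466).

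Probe set 1415989_at of *Vcam1* was dim, at 3.50 and 2.95 in KO(LPS + IL-10), 3.34 and 3.16 in KO(LPS), against 3.90 and 3.41 in WT(LPS + IL-10) and 4.92 and 4.40 in WT(LPS). Only the WT(LPS) arrays stood clear of the others. It differed by −1.41 between KO(LPS) and WT(LPS) (adjusted p = 0.053), by −1.002 with IL-10 in WT cells (adjusted p = 0.243) and by −0.03 with IL-10 in KO cells.

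**Figure D2:**
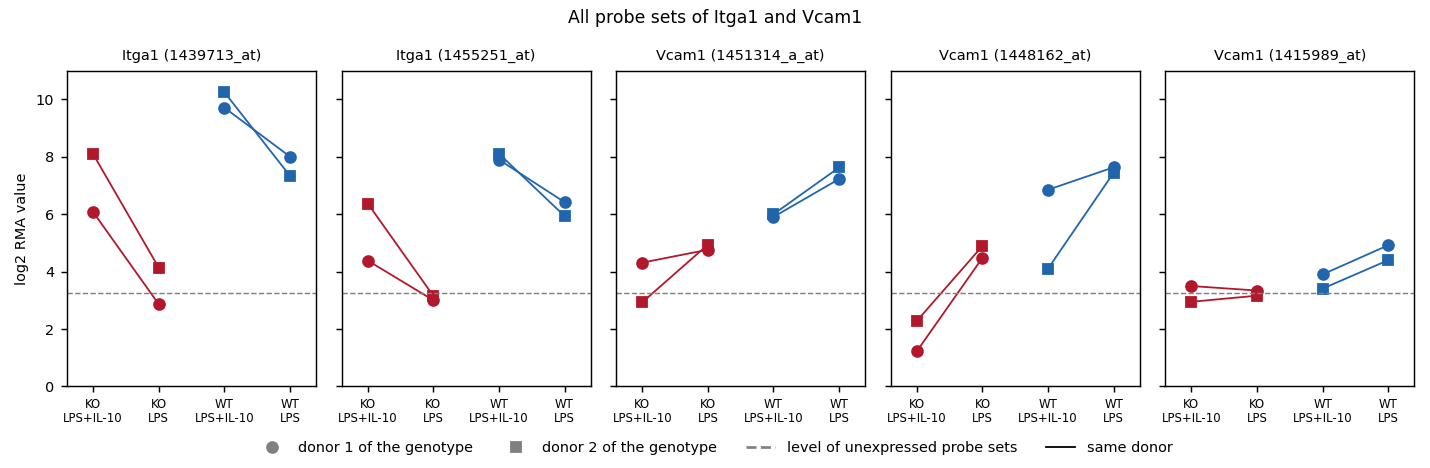
Log2 RMA values (y axis) of all probe sets of *Itga1* and *Vcam1* in the 4 groups (x axis), with lines that join the arrays of 1 donor and a dashed line at the level of unexpressed probe sets (3.26). Both *Itga1* probe sets are higher with IL-10 in all 4 donors, and all 3 *Vcam1* probe sets are highest in WT(LPS).

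Among the beta2 integrins *Itgal* differed between genotypes, and the shared beta chain *Itgb2* was nearly level. The brighter *Itgal* probe set (1435560_at) was at 9.19 and 9.45 in KO(LPS + IL-10), 10.68 and 10.93 in KO(LPS), against 8.49 and 9.06 in WT(LPS + IL-10) and 9.43 and 9.70 in WT(LPS). The KO(LPS) arrays were above the other 6. *Itgal* was 2.37-fold higher in KO(LPS) than in WT(LPS) (log2 difference 1.25, 95% confidence interval 0.74 to 1.75, adjusted p = 0.0461, and 1.11 with adjusted p = 0.107 without WT donor 1). IL-10 lowered it 2.81-fold in KO cells (−1.49, adjusted p = 0.0117). In WT cells the difference was −0.79 (adjusted p = 0.267). The other *Itgal* probe set (1425367_at) was higher by 1.51 in KO(LPS) (adjusted p = 0.0352, and 1.42 with 0.0463 without WT donor 1) and lower by −1.55 with IL-10 in KO cells (adjusted p = 0.0147).

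*Itgam* and *Itgax*, which lie next to each other on chromosome 7, overlapped between genotypes under LPS and passed no test over all 8 arrays. *Itgam* (1422046_at) was at 9.28 and 9.49 in KO(LPS + IL-10), 8.45 and 8.92 in KO(LPS), against 9.36 and 9.46 in WT(LPS + IL-10) and 9.19 and 8.71 in WT(LPS). With IL-10 it was above its LPS partner in all 4 donors, with log2 differences of 0.70 in KO cells (adjusted p = 0.121) and 0.46 in WT cells (adjusted p = 0.531). *Itgax* (1419128_at) ran the other way. It was at 5.53 and 5.41 in KO(LPS + IL-10), 6.44 and 7.07 in KO(LPS), against 5.31 and 5.75 in WT(LPS + IL-10) and 6.31 and 7.28 in WT(LPS).

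All 4 *Itgax* arrays with IL-10 were below the 4 without. The log2 differences were −1.29 in KO cells (adjusted p = 0.0813, and 0.0399 without WT donor 1) and −1.26 in WT cells (adjusted p = 0.273). The *Itgax* difference between KO(LPS) and WT(LPS) was −0.04 (95% confidence interval −0.85 to 0.77, adjusted p = 0.975), which leaves room for a change of nearly 1 log2 unit. That of *Itgam* was −0.26 (−0.78 to 0.26, adjusted p = 0.667). *Itgb2* (1450678_at) lay between 11.41 and 11.69 on all 8 arrays, and its largest log2 difference in the comparisons of groups was −0.17 (IL-10 in KO cells, adjusted p = 0.492).

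*Itga4*, the alpha chain of the VCAM-1 receptor, was higher in KO(LPS), where *Vcam1* was lower. Its brightest probe set (1436037_at) was at 9.44 and 9.52 in KO(LPS + IL-10), 10.87 and 10.67 in KO(LPS), against 8.86 and 9.01 in WT(LPS + IL-10) and 9.48 and 9.73 in WT(LPS). The KO(LPS) arrays were the highest and the WT(LPS + IL-10) arrays the lowest. *Itga4* was 2.23-fold higher in KO(LPS) than in WT(LPS) (log2 difference 1.16, 95% confidence interval 0.81 to 1.51, adjusted p = 0.0208, and 1.03 with adjusted p = 0.103 without WT donor 1). IL-10 lowered it 2.44-fold in KO cells (−1.28, adjusted p = 0.00601), and the difference in WT cells was −0.67 (adjusted p = 0.181).

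Of the other 4 *Itga4* probe sets, 1421194_at passed in both comparisons, with log2 differences of 1.49 (adjusted p = 0.0282, and 1.34 with 0.137 without WT donor 1) and −1.60 (adjusted p = 0.00993). Probe set 1456498_at was lower by −0.98 with IL-10 in KO cells (adjusted p = 0.0367). Probe set 1450155_at had 1.06 in KO(LPS) against WT(LPS) without passing (adjusted p = 0.148). The last, 1427615_at, lay under 3.26 on all 8 arrays.

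*Itga5*, the alpha chain of the fibronectin receptor, had the same pattern. Its brightest probe set (1423267_s_at) was at 9.87 and 9.77 in KO(LPS + IL-10), 11.08 and 11.23 in KO(LPS), against 9.55 and 9.59 in WT(LPS + IL-10) and 9.69 and 10.16 in WT(LPS). The KO(LPS) arrays were clear of the other 6. *Itga5* was 2.35-fold higher in KO(LPS) than in WT(LPS) (log2 difference 1.23, 95% confidence interval 0.81 to 1.65, adjusted p = 0.0288, and 1.00 with adjusted p = 0.103 without WT donor 1). IL-10 lowered it 2.52-fold in KO cells (−1.34, adjusted p = 0.00977), against −0.36 in WT cells (adjusted p = 0.549). Probe set 1423268_at passed in both comparisons too, with 1.00 (adjusted p = 0.0443, and 0.97 with 0.122 without WT donor 1) and −1.15 (adjusted p = 0.0129). The other 2 had the same signs in both and did not pass.

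*Itga1*, the alpha chain of a collagen receptor, showed the largest differences of the 10 genes in size in KO(LPS) against WT(LPS). Its brighter probe set (1439713_at) was at 6.07 and 8.09 in KO(LPS + IL-10), 2.86 and 4.13 in KO(LPS), against 9.71 and 10.25 in WT(LPS + IL-10) and 8.01 and 7.34 in WT(LPS). No 2 groups overlapped other than KO(LPS + IL-10) and WT(LPS), and 1 KO(LPS) array lay under 3.26. *Itga1* was 18.0-fold lower in KO(LPS) than in WT(LPS) (log2 difference −4.17, 95% confidence interval −5.70 to −2.65, adjusted p = 0.0345), and −3.84 without WT donor 1 (adjusted p = 0.157). With the dim array set at 3.26 it was 15.7-fold lower. IL-10 raised it 11.97-fold in KO cells (3.58, 95% confidence interval 2.25 to 4.91, adjusted p = 0.0259), or 10.4-fold with the same array set at 3.26. In WT cells the difference with IL-10 was 2.31 (adjusted p = 0.291), and between KO(LPS + IL-10) and WT(LPS + IL-10) it was −2.90 (adjusted p = 0.237).

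The other *Itga1* probe set (1455251_at) was at 4.38 and 6.37 in KO(LPS + IL-10), 3.004 and 3.15 in KO(LPS), against 7.90 and 8.11 in WT(LPS + IL-10) and 6.42 and 5.94 in WT(LPS). Both KO(LPS) values were at the level of unexpressed probe sets. *Itga1* by this probe set was at least 7.54-fold lower in KO(LPS) than in WT(LPS) (adjusted p = 0.0564), and at least 4.33-fold higher in KO(LPS + IL-10) than in KO(LPS) (adjusted p = 0.0665). It differed by 1.82 with IL-10 in WT cells (adjusted p = 0.348) and by −2.63 between KO(LPS + IL-10) and WT(LPS + IL-10) (adjusted p = 0.232). These differences did not pass, and all had the sign of the brighter probe set.

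*Itgb8*, whose product activates latent TGF-beta, was the gene on which IL-10 had differences of opposite sign in the genotypes. Its probe set (1436223_at) was at 5.47 and 5.83 in KO(LPS + IL-10), 7.74 and 7.82 in KO(LPS), against 5.84 and 6.34 in WT(LPS + IL-10) and 4.43 and 5.59 in WT(LPS). The KO(LPS) arrays were above the other 6 by over 1 log2 unit. *Itgb8* was 6.81-fold higher in KO(LPS) than in WT(LPS) (log2 difference 2.77, 95% confidence interval 1.95 to 3.59, adjusted p = 0.0188), and it still passed without WT donor 1 (2.19, adjusted p = 0.0248). IL-10 lowered it 4.36-fold in KO cells (−2.12, adjusted p = 0.0189). In WT cells the difference with IL-10 was 1.08, which did not pass (adjusted p = 0.366).

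The effect of IL-10 on *Itgb8* was −2.26 and −1.98 in the KO donors, against 1.41 and 0.74 in the WT donors. The test of this difference gave −3.20 (95% confidence interval −4.22 to −2.19) and missed the threshold (adjusted p = 0.13). Under IL-10 the genotypes differed by −0.44 in *Itgb8* (adjusted p = 0.736). For the effect in KO cells minus that in WT cells, the only other probe set selected was 1425367_at of *Itgal* (−1.01, adjusted p = 0.369 by limma). *Itga1* (1439713_at) had 1.27 there and was not selected (adjusted p = 0.610).

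**Figure D3:**
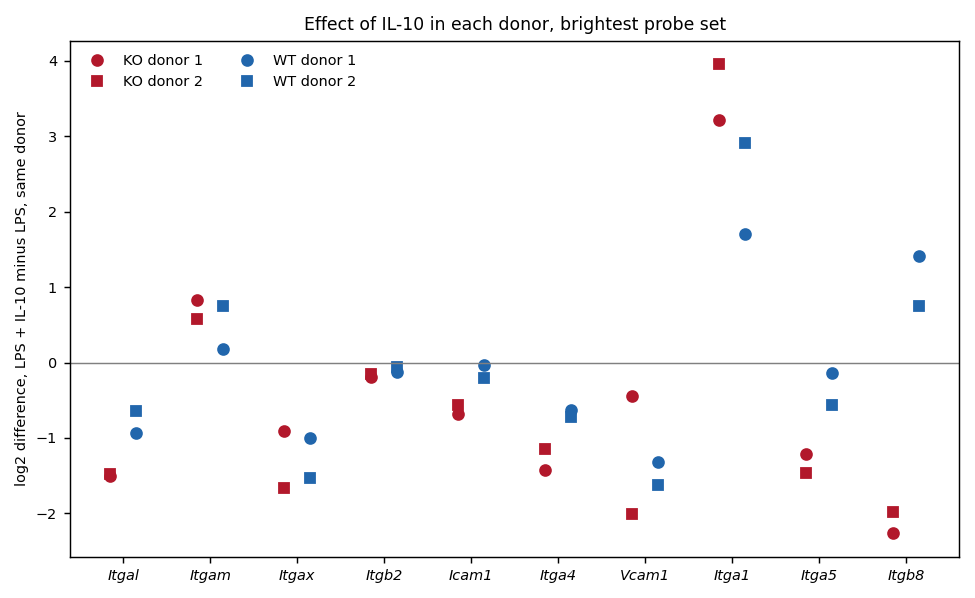
Log2 difference between the LPS + IL-10 and the LPS array of the same donor (y axis) for the brightest probe set of each gene (x axis), with KO donors in red and WT donors in blue. *Itgb8* lies below 0 in both KO donors and above 0 in both WT donors, and the other 9 genes have 1 sign in all 4 donors.

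The calls rested on few arrays. The share of all probe sets that passed with arrays left out was not computed. The counts below therefore do not tell a loss in these genes from a loss over the whole array. Without KO(LPS) of donor 1, 0 of the 21 probe sets passed in either comparison that had calls, and without WT(LPS) of donor 1 0 passed in KO(LPS) against WT(LPS). Without both arrays of WT donor 1, 2 passed in that comparison, 1 of *Itgal* and that of *Itgb8*. Of probe sets that did not pass with all arrays, the log2 difference without this donor was −0.53 for *Itgax*, −0.02 for *Itgam* and −2.86 for *Itga1* (1455251_at). It was −2.76 for *Vcam1* 1448162_at and −1.14 for *Vcam1* 1415989_at, and these did not pass either (adjusted p of 0.0833 or more).

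**Figure D4:**
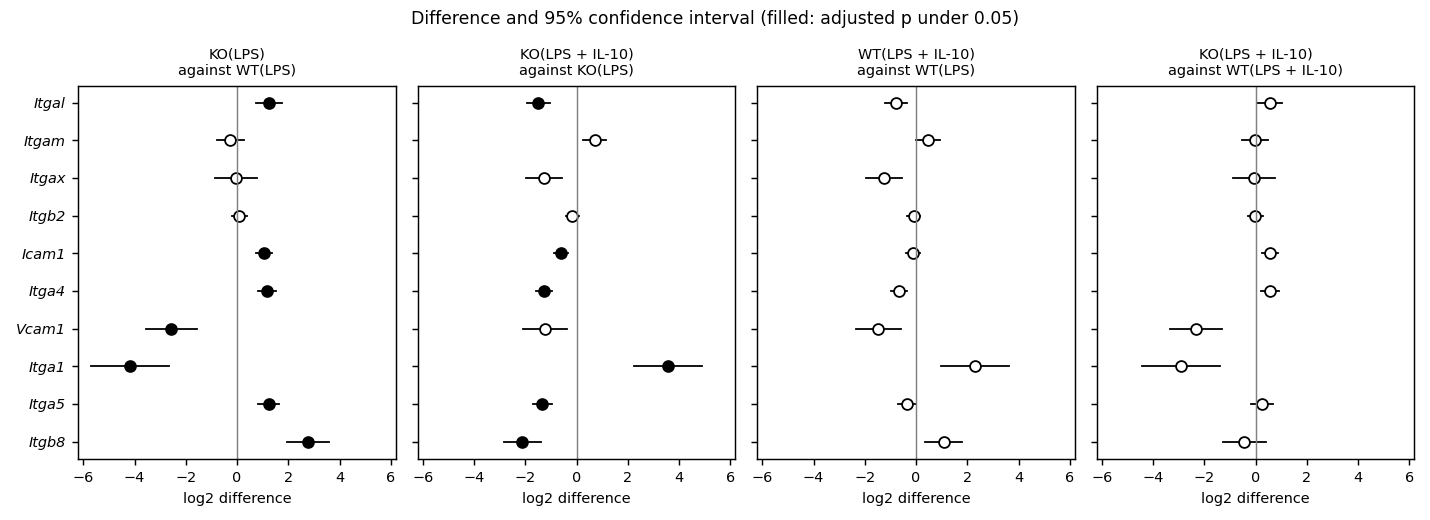
Log2 difference (x axis) with its 95% confidence interval from limma for the brightest probe set of each gene (y axis) in 4 comparisons, with filled points where the adjusted p was under 0.05. Filled points are in KO(LPS) against WT(LPS) (7 genes) and in KO(LPS + IL-10) against KO(LPS) (6 genes), and the other panels have 0.

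Partner genes of these integrins were read from a list. Of 44 listed (other alpha and beta chains, other ligands, proteins of inside-out activation, and selectins), 40 were measured, each by its brightest probe set. In KO(LPS) against WT(LPS) 1 was higher, 1 lower and 38 did not pass (5.0% called, against 1.46% of all probe sets), and the median log2 difference was −0.03 against 0.02 over all probe sets. *F11r*, which encodes JAM-A, a ligand of LFA-1, was at 7.02 and 7.27 in KO(LPS) against 4.64 and 5.07 in WT(LPS) (log2 difference 2.29, adjusted p = 0.00622). *Rasgrp2*, an exchange factor that turns on Rap1 and so integrins, was at 2.45 and 2.21 in KO(LPS) against 3.98 and 3.45 in WT(LPS) (log2 difference −1.38, adjusted p = 0.0417). Both KO(LPS) values were at the level of unexpressed probe sets, so that it was at least 1.37-fold lower there.

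With IL-10 in KO cells 1 of the 40 partners was higher, 1 lower and 38 did not pass (5.0% called, against 2.68% of all probe sets), with a median of 0.04 against 0.01 over all probe sets. *Itga6*, the alpha chain of laminin receptors, was at 10.93 and 11.04 in KO(LPS + IL-10) against 9.18 and 9.28 in KO(LPS) (log2 difference 1.76, adjusted p = 0.00251). *F11r* was at 5.84 and 6.27 in KO(LPS + IL-10) against 7.02 and 7.27 in KO(LPS) (−1.09, adjusted p = 0.0287). In the other comparisons 0 of 40 passed. Of those that were selected without passing, the platelet and endothelial selectin *Selp* was at 4.20 and 3.51 in WT(LPS + IL-10) against 2.46 and 2.39 in WT(LPS), at least 1.51-fold higher (adjusted p = 0.0895). *Itga8*, which pairs with beta1, differed by −1.65 between KO(LPS) and WT(LPS) (adjusted p = 0.0625). *F11r* differed by 1.48 between KO(LPS + IL-10) and WT(LPS + IL-10) (adjusted p = 0.0832). For the difference between genotypes in the IL-10 effect, *Itga6* had 1.25 (adjusted p = 0.144) and *Itga8* 1.01 (adjusted p = 0.454).

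The genes whose values over the 8 arrays (4 donors) were most like those of *Itga1* were *Il13ra1* (Pearson r = 0.989), *Ccr1* (0.983), *Mmp19* (0.981), *Cacna1d* (0.980) and *F13a1* (0.977). They were taken from 519 probe sets with 1 symbol, a mean of at least 6 and a range of at least 2. *F13a1*, which encodes the coagulation factor XIII A chain, was at 5.99 and 8.81 in KO(LPS + IL-10), 2.96 and 4.94 in KO(LPS), against 11.64 and 11.19 in WT(LPS + IL-10) and 10.10 and 9.09 in WT(LPS). It had the order of groups that *Itga1* had. For *Vcam1* (1451314_a_at) they were *Gsta3* (0.963), *Clec7a* (0.957), *Slc40a1* (0.948), *Col18a1* (0.947) and *Flrt2* (0.946). *Clec7a*, the beta-glucan receptor dectin-1, was at 6.25 and 6.06 in KO(LPS + IL-10), 6.81 and 6.58 in KO(LPS), against 7.67 and 7.88 in WT(LPS + IL-10) and 8.08 and 8.83 in WT(LPS). The arrays share donors, genotype and treatment, and these correlations are descriptions.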

How the data were processed

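RNA was amplified (NuGEN) and hybridised to Affymetrix mouse arrays, and the authors deposited log2 intensities from RMA (affy). Quantile normalisation makes each value relative to its array. The sources used here gave no tool versions. Of 45101 probe sets, 64 controls and 29 of Y-linked genes or *Xist* were left out. limma 3.58.1 (R 4.3.3; lmFit, eBayes) was fitted to group means over all 8 arrays, with the donor (genotype and replicate number) as a random block (duplicateCorrelation, 0.24) and Benjamini-Hochberg adjustment over 45008 probe sets. Deviations from group means of same-donor arrays correlated at r = 0.230 in KO and 0.754 in WT arrays. Symbols came from the array annotation, and sequences and gene order from RefSeq. All 10 genes were named whatever their values, and partners only where called or selected. Members, lists and alternatives were chosen with earlier results of these data known. The fit was tested on simulated data. The alternatives were other blocks, samples, filters, array weights, centring and selection rules, and leaving out arrays.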

Additional observations from a re-analysis of the deposited data

Results flagged for a closer look

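For 2 probe sets of these genes the IL-10 effect was below 0 in both KO donors and above 0 in both WT donors. For *Itgb8* (1436223_at) the effect in KO cells minus that in WT cells was −3.20, and the limma test of this difference missed the threshold (adjusted p = 0.13). For *Itga4* (1427615_at) it was −0.37 (adjusted p = 0.501), on a probe set that lay under the level of unexpressed probe sets on all 8 arrays.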

How the results depend on the processing

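With no replicate block, 8 probe sets passed in KO(LPS) against WT(LPS) and 6 in KO(LPS + IL-10) against KO(LPS), where 10 passed in each with the donor as a random block. With the donor as a fixed block 12 passed in the second, the effect of IL-10 in KO cells. With only the arrays compared, at the donor correlation of all 8 arrays, 3 passed in KO(LPS) against WT(LPS), and without both arrays of WT donor 1, at the same correlation, 2 passed there. With 1 array left out, 0 to 7 passed there and 0 to 8 for IL-10 in KO cells, and 0 in the other comparisons. With the brightest probe set of each gene alone, 6 passed for IL-10 in KO cells. In WT(LPS + IL-10) against WT(LPS), where 0 passed, 2 passed among probe sets with a mean of at least 6, 1 passed with an intensity trend and robust hyperparameters, and 7 were selected by the rule of the study's methods. In KO(LPS + IL-10) against WT(LPS + IL-10) these were 1 with the trend and 4 by that rule. For the difference of the IL-10 effect they were 1 with the filter, 1 with the trend and 2 by that rule. The shares of all probe sets that passed under the other fits were not computed. The cause of these changes was not tested. The 41 differences of single probe sets that were called or selected, 20 of them called, gave 619 values under the alternatives. Of these values 461 kept their direction and side of the threshold, 130 no longer passed and 28 passed anew. Although 0 changed direction, many alternatives alter only the estimate of the spread and leave the difference as it was. The count therefore does not test the direction. Signals under 3.26 limit what can be said of *Vcam1* and *Itga1* in the KO groups.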
